A study of Mus musculus with 24 samples.

Results

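The genes described here are 36 NRF2 (Nfe2l2) and antioxidant genes: the NRF2 sensor system itself, and enzymes and transporters of cystine uptake, glutathione, thioredoxin, superoxide, haem, iron and NADPH metabolism. They were taken as a named list from a table of 15390 genes measured in MC38 cells, a mouse colon carcinoma line. All 36 were in the table, and all 36 passed the filter on low values (at least 4 libraries at a log2 value of 0 or more), as did 13272 genes in all. The cells carried a guide RNA against Ado (Ado gRNA 1 or Ado gRNA 2, labelled Ado KO) or a control guide RNA (Control gRNA 1 or Control gRNA 2), which gives 4 guide populations. Each population was treated with TNF for 1 h or 6 h or left untreated, with 2 libraries per population and treatment. The 6 groups were therefore Ado KO and control cells at each of 3 treatments, with 4 libraries in a group and 24 libraries in all. All groups are MC38 cells grown in the same medium and all carry a guide RNA. Values are log2 CPM (counts per library total, on a log2 scale), and the means of the 36 genes over all libraries ran between 0.63 for Gsta4 and 10.3 for Ftl1. In the text the 4 libraries of a group are given in the order 1-1, 1-2, 2-1 and 2-2, where the first digit is the guide and the second the replicate.

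NRF2 is a transcription factor that KEAP1 holds at a low level by handing it to a ubiquitin ligase. Oxidants and electrophiles modify cysteines of KEAP1, after which NRF2 accumulates, pairs with small MAF proteins and binds antioxidant response elements in genes for glutathione synthesis, thioredoxin, NADPH supply, ferritin and haem breakdown. SQSTM1 (p62), an autophagy receptor, can bind KEAP1. TNF acts mainly through NF-kB and MAP kinases, and mitochondrial superoxide dismutase (Sod2) and ferritin heavy chain (Fth1) are known TNF or NF-kB targets in other cells. ADO is a thiol dioxygenase whose substrates are cysteamine and proteins that begin with a cysteine, so it belongs to thiol metabolism as glutathione does.

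The NF-kB target Nfkbia checked the treatment: at 6 h it stood 3.08 log2 units above untreated in Ado KO cells and 2.99 above in control cells (SE 0.08 each). Ado mRNA was not lower in the libraries labelled Ado KO, at 5.35 ± 0.09 against 5.26 ± 0.08 log2 CPM in control libraries without TNF (SD, n = 4 each). A 3' tag level of an edited gene does not show whether its reading frame was cut, so this checks nothing about the labels. Of 10 epithelial markers only Krt8, Krt18 and Cdh1 were analysed, and their summed level was between 0.294 and 3.37 CPM over all libraries. Of 15 immune markers 9 were analysed, and without TNF they summed to 14.3 to 40.2 CPM in Ado KO and 12.9 to 19.1 in control cells. The sums were 11.7 to 21.3 in Ado KO and 12.6 to 21.1 in control cells at 1 h. At 6 h they were 17.7 to 29.4 in Ado KO and 14.1 to 34.6 in control cells. The part of immune markers in the results was not tested. The labels do not state whether the replicates came from separate cultures, so the spread behind each p-value may be technical. In bulk RNA, fewer cells and less RNA per cell cannot be told apart. Libraries without TNF kept for 6 h were not analysed here, so TNF and time in culture cannot be told apart at 6 h. Small RNA and histone genes took 1.43 to 1.66% of the signal in Ado KO and 1.71 to 2.29% in control cells at 6 h, against 1.10 to 1.40% in Ado KO and 1.08 to 1.17% in control cells without TNF. For 9 of the 36 genes (Ftl1, Fth1, Gpx4, Gstm1, Gstp1, Prdx1, Prdx2, Sod1 and Sod2) the last 300 bases had a near-identical stretch in another gene (95% identity over at least 100 bases), so tags could have been split and their values are uncertain.

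RefSeq promoters (GRCm38.p6, 250 bases before to 50 after the start site) were found for 30 of the 36 genes, all but Hmox1, Gclc, Gsr, Gsta4, Prdx6 and Abcc1. Txnrd1, Fth1, Gpx4, Gstm1, Pgd and Me1 had more than 1 listed start, and the one nearest the annotated gene start was used. Other starts of the members and bases outside this window were not searched. The promoters are shown because the set is defined by a regulator with known binding letters. The antioxidant response element core TGACNNNGC, searched on both strands, was in 8 of these 30 (Nfe2l2, Gclm, Srxn1, Prdx1, Sod1, G6pdx, Me1 and Ggct) and in 12.4% of 32851 promoters. The NF-kB consensus was in 6 of 30 (Sqstm1, Sod2, Ftl1, Gpx1, Prdx1 and Cat) and in 8.46% of all. The amino acid response element TGATGNAA, to which ATF4 binds, was in 1 of 30 and in 3.97% of all. That promoter was Slc7a11, with matches that start at -66 and -47 from the start site, on opposite strands. A match is a description of letters and not of a bound site. The sequences below run 5′ to 3′ on the gene's strand, with the matched letters in capitals, and end at or before the start site. The first belongs to the gene with the largest rise, the next 3 to genes with the antioxidant response element letters, and the last 2 to genes with the NF-kB letters.
Slc7a11, chr3:50443614-50443733, minus strand: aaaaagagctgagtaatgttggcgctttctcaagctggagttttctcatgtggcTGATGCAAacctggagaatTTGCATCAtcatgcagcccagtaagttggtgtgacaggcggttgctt
Gclm, chr3:122245398-122245456, plus strand: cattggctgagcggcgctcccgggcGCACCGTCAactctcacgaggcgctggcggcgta
Prdx1, chr4:116685441-116685499, plus strand: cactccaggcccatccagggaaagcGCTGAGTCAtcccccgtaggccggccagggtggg
G6pdx, chrX:74428904-74428962, minus strand: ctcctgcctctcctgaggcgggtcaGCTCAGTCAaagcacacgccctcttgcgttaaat
Sqstm1, chr11:50210821-50210863, minus strand: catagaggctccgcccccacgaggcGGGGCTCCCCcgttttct
Sod2, chr17:13007731-13007790, plus strand: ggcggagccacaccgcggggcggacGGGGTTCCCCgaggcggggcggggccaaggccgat

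The first question was how the set responded to 6 h of TNF. In Ado KO cells 4 of 36 genes rose (Slc7a11, Sqstm1, Abcc1 and Srxn1) and 3 fell (Ftl1, Fth1 and Taldo1), where 6.44% of all genes tested were called, 4.42% as higher and 2.02% as lower. In control cells 3 rose (Slc7a11, Sqstm1 and Abcc1) and 7 fell (Ftl1, Fth1, Osgin1, Taldo1, Prdx2, Prdx6 and Sod1), where 18% of all genes were called, 7.74% as higher and 10.3% as lower. Genes with a mean of 5 or more log2 CPM were called more often, 8.11% of them in Ado KO and 26% in control cells, and 22 of the 36 had such a mean. Of these genes 4.95% were higher and 3.16% lower in Ado KO cells. In control cells 8.57% of them were higher and 17.4% lower. The median log2 difference of the set was -0.10 in Ado KO cells, against -0.05 over all genes tested, and -0.15 in control cells, against -0.09. When the values were normalised again over protein-coding genes without histone genes, a setting chosen after seeing the data, control cells had 5 higher and 6 lower members in place of 3 and 7. Txn1 and Prdx1 were then called as higher, and Sod1 was not called. The counts with 1 guide population left out were 3 without Ado guide 1 and 2 without Ado guide 2 in Ado KO cells, and 6 without control guide 1 in control cells. Shares of all genes under these other settings are not given here, so these counts cannot be set against them.

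**Figure D1:**
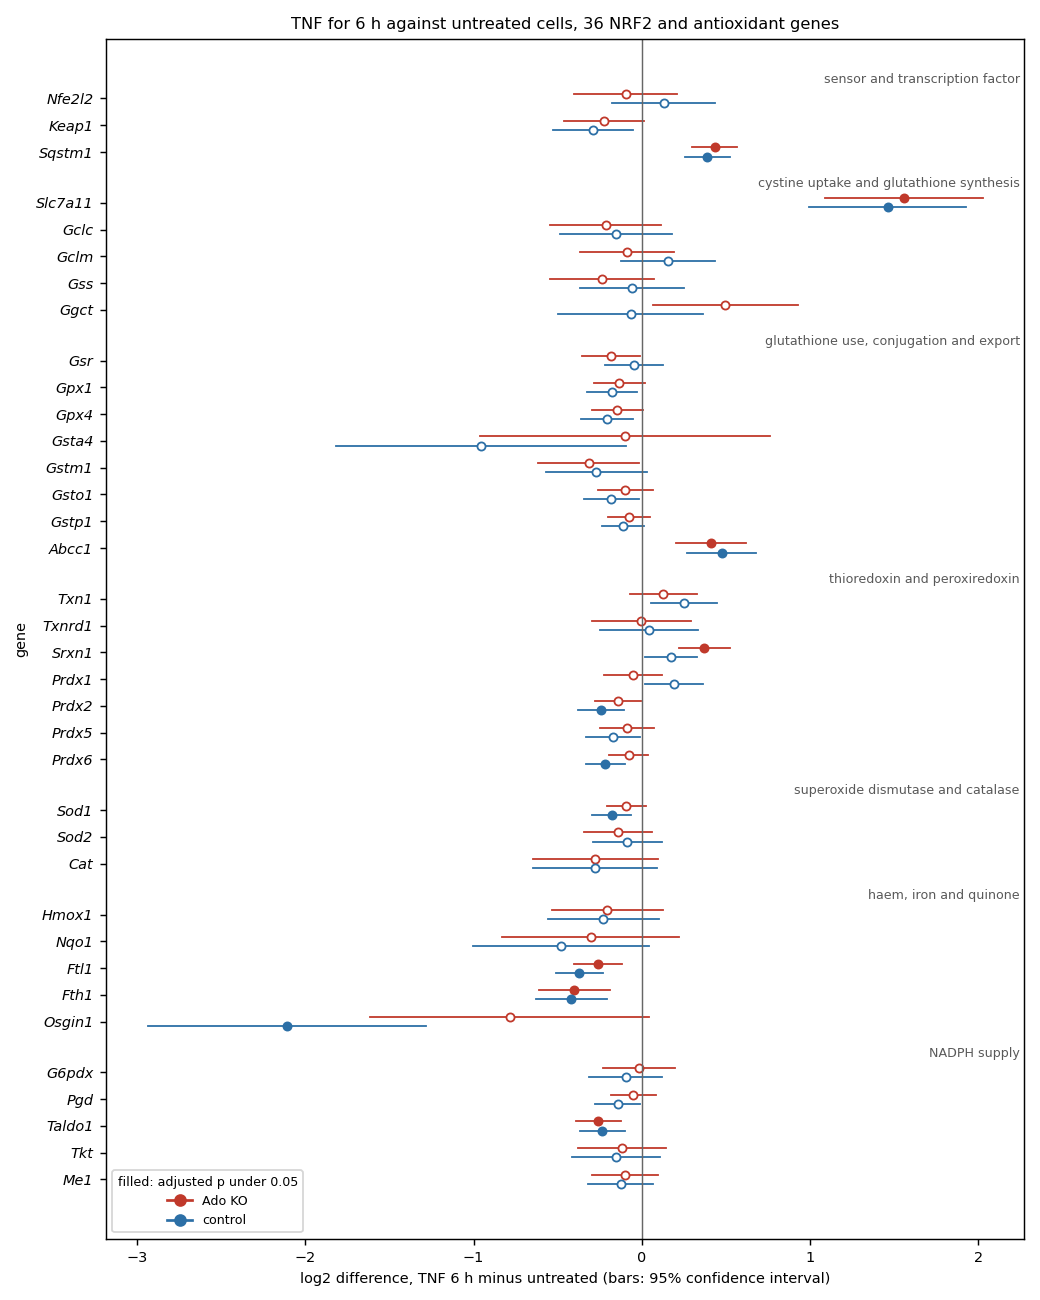
Log2 difference between TNF at 6 h and untreated cells for each of the 36 genes, grouped by role, in Ado KO (red, upper) and control cells (blue, lower), with 95% confidence intervals and filled points for adjusted p under 0.05. Slc7a11 stands at 1.56 in Ado KO and 1.46 in control cells, while the points of Nfe2l2, Gclc, Gclm and Txnrd1 are open in both.

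Averaging both genotypes gave the comparison of 6 h with untreated cells that had the most libraries, 8 against 8. Here 5 genes rose and 11 fell, where 22.8% of all genes were called, 9.28% as higher and 13.5% as lower. Among genes with a mean of 5 or more 32.4% were called, 9.88% as higher and 22.5% as lower. The rises were Slc7a11, Abcc1, Sqstm1, Srxn1 and Txn1. The falls were Osgin1, Fth1, Ftl1, Gstm1, Keap1, Taldo1, Prdx2, Gpx4, Gpx1, Prdx6 and Sod1. Normalised again over protein-coding genes, 5 rose and 8 fell, again without a share of all genes for that setting. The falls of Gpx1, Gstm1 and Sod1 were not called there. In all 4 guide populations the mean at 6 h exceeded that population's own untreated mean for 5 genes and was below it for 18. Over all genes tested 13.8% were above in all 4 populations and 24.1% below, and among genes with a mean of 5 or more 13.1% and 32.7%.

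Among the sensor genes, Sqstm1 rose and Keap1 fell on average, while Nfe2l2 mRNA did not pass the test. Sqstm1, the KEAP1-binding autophagy receptor, stood at 8.76, 8.76, 8.70 and 8.71 log2 CPM in Ado KO cells at 6 h, against 8.25, 8.33, 8.32 and 8.31 in untreated Ado KO cells. In control cells it stood at 8.83, 8.82, 8.91 and 9.03 at 6 h, against 8.46, 8.43, 8.55 and 8.60 without TNF. Every TNF library was above every untreated library of its genotype, and the difference was 0.43 ± 0.07 in Ado KO cells (SE, adjusted p = 1.35e-05) and 0.39 ± 0.07 in control cells (adjusted p = 5.25e-05). Keap1, which holds NRF2 low, stood at 5.12, 4.71, 4.74 and 4.73 in Ado KO cells at 6 h, against 5.15, 5.07, 5.09 and 4.89 without TNF. In control cells Keap1 stood at 4.70, 4.48, 4.68 and 4.52 at 6 h, against 4.83, 4.95, 4.84 and 4.92. The control groups did not overlap and the Ado KO groups did. Keap1 passed only as the mean of both genotypes, at -0.26 ± 0.08 (SE, adjusted p = 0.0234), and not without Ado KO library 1-2 at 6 h (adjusted p = 0.0537) or without control guide 1, control guide 2 or Ado guide 2 (adjusted p 0.102 to 0.141). Nfe2l2, which encodes NRF2, stood at 3.94, 3.98, 3.42 and 3.93 in Ado KO cells at 6 h, against 4.03, 4.00, 3.71 and 3.92 without TNF, and at 4.06, 4.08, 3.96 and 3.88 in control cells at 6 h, against 4.22, 3.73, 3.73 and 3.77. The groups overlapped in both genotypes, and the interval of the mean difference ran from -0.20 to 0.23 log2 units. NRF2 activity is controlled largely at the protein level, which these libraries do not measure.

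Of the 5 genes of cystine uptake and glutathione synthesis, 1 rose in each genotype and none fell. Among all genes 4.42% rose in Ado KO and 7.74% in control cells. Slc7a11, the transporter that imports cystine in exchange for glutamate, stood at 3.42, 3.67, 3.14 and 3.50 log2 CPM in Ado KO cells at 6 h, against 2.05, 1.30, 1.89 and 2.26 without TNF. In control cells it stood at 3.22, 2.88, 3.66 and 3.65 at 6 h, against 1.93, 1.42, 1.74 and 2.48. No TNF library reached down to an untreated library in either genotype. The differences were 1.56 ± 0.23 log2 units in Ado KO cells, a 2.94-fold level (SE, adjusted p = 9.64e-06), and 1.46 ± 0.23 in control cells, a 2.75-fold level (adjusted p = 1.81e-05). By population the difference was 1.87 for Ado guide 1 and 1.25 for Ado guide 2, and 1.38 for control guide 1 and 1.55 for control guide 2. The enzymes of glutathione synthesis did not pass. Gclc and Gclm, the catalytic and modifier subunits of glutamate-cysteine ligase, which limits the rate of synthesis, had mean differences over both genotypes of -0.18 ± 0.11 and 0.04 ± 0.10 (SE). Gss, glutathione synthetase, had -0.15 ± 0.11, and Ggct, a cyclotransferase that breaks down gamma-glutamyl peptides, had 0.22 ± 0.15.

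**Figure D2:**
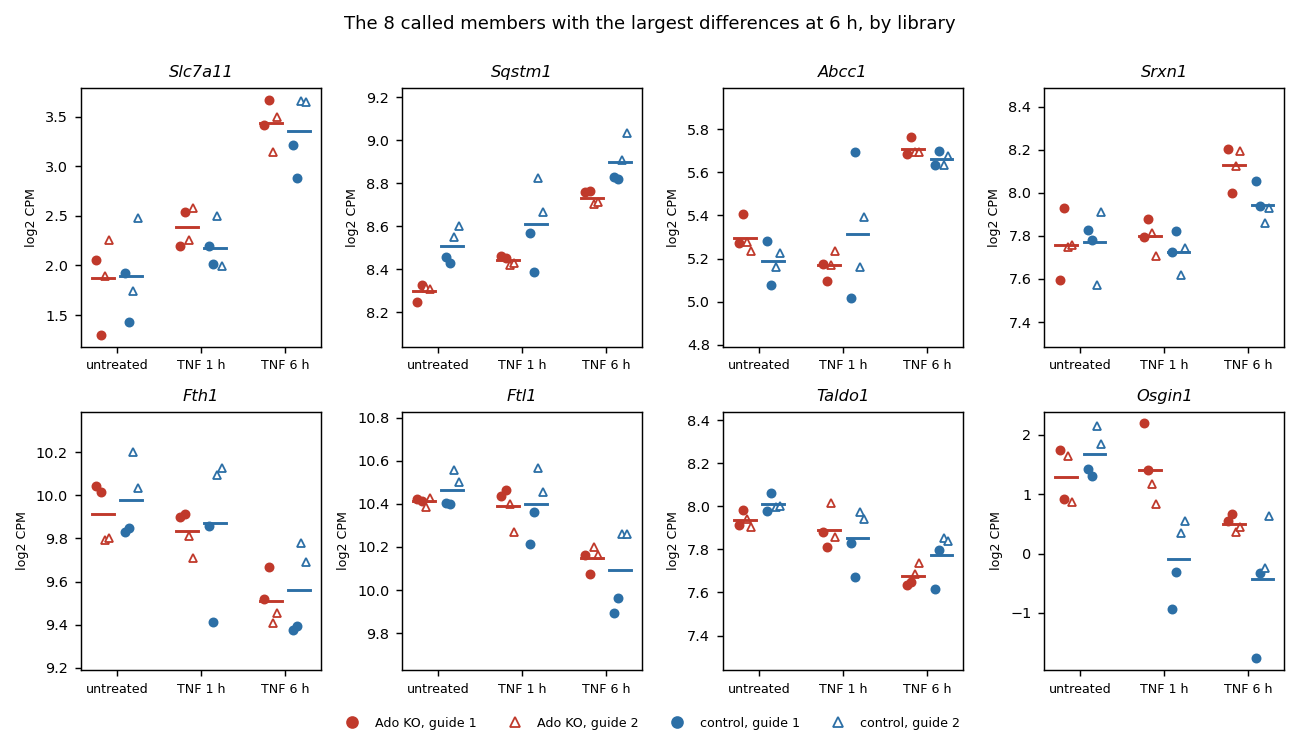
Log2 CPM in each library for the 8 genes with the largest differences at 6 h among those called within a genotype. Ado KO is red and control blue, with guide 1 as circles, guide 2 as triangles and a bar at the group mean. Each panel has its own axis, which does not start at 0. Slc7a11 separates 6 h from untreated libraries in both genotypes, and control guide 1 lies below control guide 2 in the ferritin genes Fth1 and Ftl1 at 6 h.

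Among 8 genes that use, conjugate or export glutathione, Abcc1 was the only one called within a genotype. Abcc1 (MRP1), which exports glutathione conjugates, stood at 5.69, 5.76, 5.70 and 5.69 in Ado KO cells at 6 h, against 5.27, 5.41, 5.27 and 5.23 without TNF. In control cells it stood at 5.63, 5.70, 5.63 and 5.68 at 6 h, against 5.28, 5.08, 5.16 and 5.22. All TNF libraries were above all untreated ones, by 0.41 ± 0.10 in Ado KO cells (SE, adjusted p = 0.00816) and 0.47 ± 0.10 in control cells (adjusted p = 0.0012). With 1 Ado population alone the Ado KO difference did not pass, at 0.44 without Ado guide 1 (adjusted p = 0.188) and 0.39 without Ado guide 2 (adjusted p = 0.279). Over both genotypes 3 of the 8 genes fell, where 13.5% of all genes and 22.5% of those with a mean of 5 or more did. Gstm1, a mu-class glutathione transferase, stood at 3.77, 4.09, 3.70 and 4.27 in Ado KO cells at 6 h, against 4.27, 4.11, 4.44 and 4.29 without TNF, and at 3.49, 3.73, 3.61 and 3.73 in control cells at 6 h, against 3.79, 3.84, 4.04 and 3.96. Only the control groups were apart. Its mean difference was -0.29 ± 0.10 (SE, adjusted p = 0.0411). Gpx1, the cytosolic glutathione peroxidase, fell by 0.15 ± 0.05 and Gpx4, which reduces lipid hydroperoxides, by 0.18 ± 0.05 (adjusted p = 0.0301 and 0.0155). The call of Gstm1 ended in 10 of 24 fits that left out a library (adjusted p up to 0.0998), and that of Gpx1 in 8 (up to 0.0718). Gstm1 did not pass without any 1 of the 4 populations (adjusted p up to 0.173), Gpx1 without control guide 1, control guide 2 or Ado guide 1 (up to 0.295), and Gpx4 without control guide 1, Ado guide 1 or Ado guide 2 (up to 0.122). Glutathione reductase (Gsr), Gsta4, Gsto1 and Gstp1 did not pass, with mean differences of -0.12, -0.53, -0.14 and -0.09.

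In the thioredoxin system Srxn1 rose in Ado KO cells, and Srxn1 and Txn1 rose as the mean of both genotypes. Srxn1, sulfiredoxin, which repairs overoxidised peroxiredoxins, stood at 8.20, 8.00, 8.12 and 8.19 in Ado KO cells at 6 h, against 7.59, 7.93, 7.75 and 7.76 without TNF. In control cells it stood at 8.05, 7.94, 7.86 and 7.93 at 6 h, against 7.83, 7.78, 7.57 and 7.91. The Ado KO groups did not overlap, and the control groups did. The difference was 0.37 ± 0.07 in Ado KO cells (SE, adjusted p = 0.000932) and 0.17 ± 0.07 in control cells (adjusted p = 0.109), and the difference between the genotypes' responses, 0.20 ± 0.11, did not pass (adjusted p = 0.767). Without Ado guide 2 the Ado KO difference was 0.34 and did not pass (adjusted p = 0.15). Txn1, thioredoxin, stood at 8.91, 9.18, 8.96 and 8.85 in Ado KO cells at 6 h, against 8.85, 8.84, 8.85 and 8.84 without TNF, and at 9.14, 9.11, 9.05 and 9.02 in control cells at 6 h, against 8.59, 8.85, 9.00 and 8.87. All 4 control libraries at 6 h were above the untreated ones. Its mean rise was 0.19 ± 0.07 (SE, adjusted p = 0.0449), and the call ended in 14 of 24 fits that left out a library (adjusted p up to 0.125). In all, the Txn1 call ended in 18 of 38 alternatives, also without control guide 1 or Ado guide 1 (adjusted p up to 0.404 over the 38). Txnrd1, the reductase of thioredoxin and a common NRF2 target, had a mean difference of 0.02 ± 0.10 (SE).

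The peroxiredoxins, which reduce peroxides, had 2 lower genes in control cells and 0 in Ado KO cells. Of all genes 10.3% were called as lower in control and 2.02% in Ado KO cells. Among genes with a mean of 5 or more the shares were 17.4% and 3.16%. Prdx2 stood at 7.80, 7.80, 7.76 and 7.85 in Ado KO cells at 6 h, against 7.89, 7.95, 7.98 and 7.95 without TNF, and at 7.58, 7.60, 7.75 and 7.80 in control cells at 6 h, against 7.91, 7.88, 7.91 and 8.00. Its groups did not overlap in either genotype, but it passed only in control cells (-0.24 ± 0.07, SE, adjusted p = 0.0103) and as the mean (-0.19 ± 0.05, adjusted p = 0.00287). Prdx6 stood at 8.83, 8.72, 8.88 and 8.89 in Ado KO cells at 6 h, against 8.89, 8.95, 8.89 and 8.90 without TNF, and at 8.50, 8.59, 8.61 and 8.72 in control cells at 6 h, against 8.88, 8.78, 8.80 and 8.81. It fell by 0.22 ± 0.06 in control cells (SE, adjusted p = 0.00927) and the 2 control groups were apart. Without control guide 1 neither call in control cells held, with Prdx2 at -0.18 (adjusted p = 0.282) and Prdx6 at -0.14 (adjusted p = 0.32). Prdx1 and Prdx5 did not pass, with mean differences of 0.07 ± 0.06 and -0.13 ± 0.06 (SE).

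Of the superoxide dismutases and catalase, Sod1 fell in control cells. Sod1, the cytosolic dismutase, stood at 9.39, 9.27, 9.44 and 9.36 in Ado KO cells at 6 h, against 9.40, 9.46, 9.48 and 9.48 without TNF. In control cells it stood at 9.15, 9.16, 9.25 and 9.26 at 6 h, against 9.39, 9.30, 9.34 and 9.51. Only the control groups were apart, by 0.18 ± 0.06 (SE, adjusted p = 0.0282), and this call ended without control library 1-1 or 1-2 at 6 h or 1-1 or 2-2 without TNF (adjusted p 0.0619 to 0.121), and without either control population (adjusted p = 0.213 and 0.133). Sod2, the mitochondrial dismutase known as a TNF target, stood at 5.40, 5.45, 5.59 and 5.49 in Ado KO cells at 6 h, against 5.52, 5.65, 5.67 and 5.65 without TNF. In control cells Sod2 stood at 5.31, 4.98, 5.54 and 5.56 at 6 h, against 5.43, 5.29, 5.44 and 5.58. The groups overlapped, the mean difference was -0.11 ± 0.07 (SE), and its interval ended at 0.03, so a rise of the size seen for Sqstm1 lies outside it. Catalase (Cat) had a mean difference of -0.28 ± 0.13 (SE, adjusted p = 0.12).

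The haem, iron and quinone genes held the 2 ferritin subunits, which fell in both genotypes. Fth1, the heavy chain that oxidises iron for storage, stood at 9.52, 9.67, 9.41 and 9.45 in Ado KO cells at 6 h, against 10.04, 10.01, 9.79 and 9.80 without TNF, and at 9.38, 9.39, 9.78 and 9.69 in control cells at 6 h, against 9.83, 9.85, 10.20 and 10.03. Each genotype's groups were apart. Fth1 fell by 0.40 ± 0.10 in Ado KO cells (SE, adjusted p = 0.0121) and by 0.42 ± 0.10 in control cells (adjusted p = 0.00486). Ftl1, the light chain, stood at 10.16, 10.07, 10.20 and 10.16 in Ado KO cells at 6 h, against 10.42, 10.41, 10.39 and 10.43 without TNF, and at 9.89, 9.96, 10.26 and 10.26 in control cells at 6 h, against 10.40, 10.40, 10.56 and 10.50. It fell by 0.26 ± 0.07 in Ado KO cells (SE, adjusted p = 0.0158) and by 0.37 ± 0.07 in control cells (adjusted p = 0.000234). In Ado KO cells the call of Ftl1 ended without library 1-2 at 6 h (adjusted p = 0.0674). The call of Fth1 there ended without library 2-1 at 6 h or library 1-1 or 1-2 without TNF (adjusted p 0.0506 to 0.0528). With either Ado population alone neither call was made in Ado KO cells, with Fth1 at -0.37 and -0.44 and Ftl1 at -0.23 and -0.30. In control cells both calls held in all 38 alternatives.

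Osgin1, an oxidative stress-induced growth inhibitor, had the largest fall of the set in control cells but a low level. It stood at 0.55, 0.67, 0.36 and 0.46 in Ado KO cells at 6 h, against 1.74, 0.92, 1.64 and 0.87 without TNF, and at -1.76, -0.33, -0.25 and 0.64 in control cells at 6 h, against 1.42, 1.31, 2.14 and 1.86. The groups of each genotype were apart. The fall was 2.11 ± 0.41 log2 units in control cells (SE, adjusted p = 0.000325) and did not pass in Ado KO cells (-0.79 ± 0.41, adjusted p = 0.315). With 1 CPM added before the log the control difference was -1.22. Hmox1, haem oxygenase 1, a classic NRF2 target, stood at 3.25, 3.09, 3.55 and 3.41 in Ado KO cells at 6 h, against 3.34, 3.69, 3.68 and 3.41 without TNF. In control cells Hmox1 stood at 3.18, 3.36, 2.76 and 3.39 at 6 h, against 3.82, 3.34, 3.19 and 3.27. Nqo1, a quinone reductase often used as an NRF2 readout, stood at 2.31, 2.25, 2.55 and 2.42 in Ado KO cells at 6 h, against 2.67, 3.19, 2.50 and 2.39, and at 1.45, 1.95, 2.26 and 2.37 in control cells at 6 h, against 2.00, 2.67, 2.41 and 2.87. Both genes overlapped between groups. Their mean differences were -0.22 ± 0.11 for Hmox1 and -0.39 ± 0.18 for Nqo1 (SE, adjusted p = 0.173 and 0.12).

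**Figure D3:**
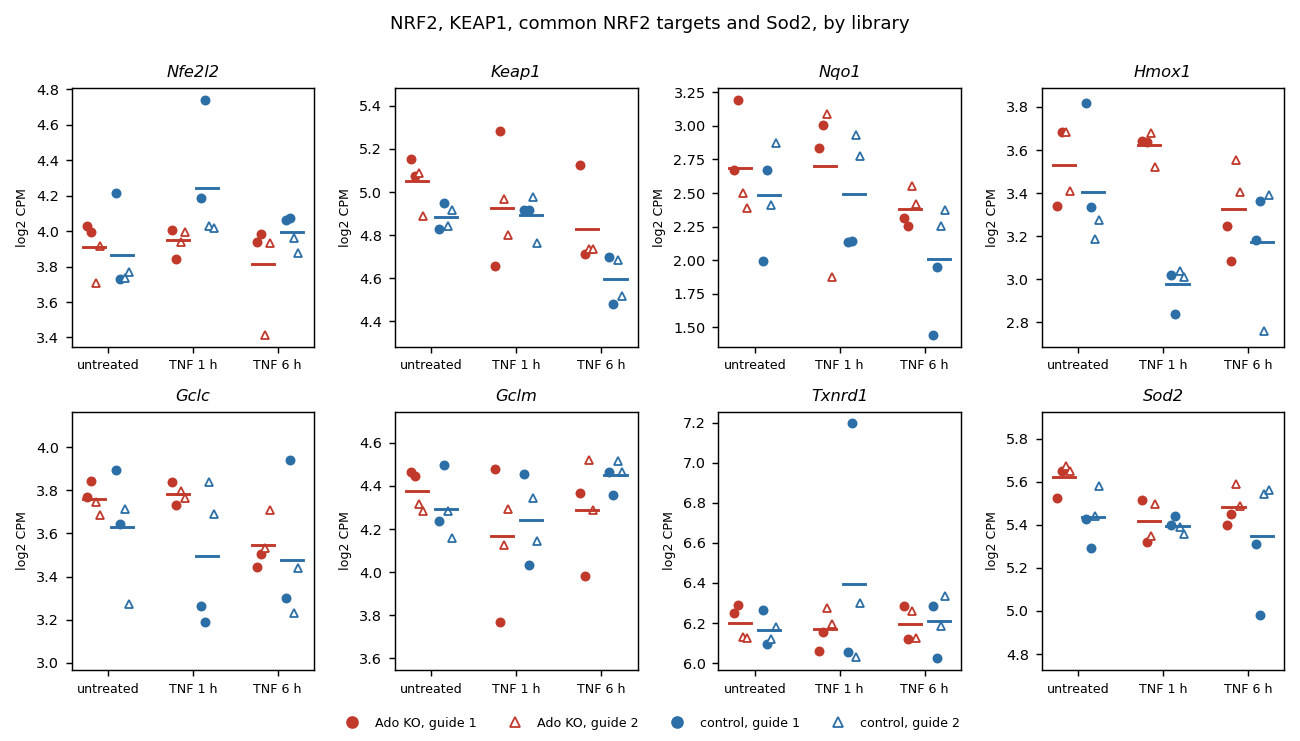
Log2 CPM in each library for Nfe2l2, Keap1, the NRF2 targets Nqo1, Hmox1, Gclc, Gclm and Txnrd1, and Sod2, drawn as in the plot of the 8 called genes, with Ado KO in red and control in blue. Of these 8 genes Keap1 alone passed at 6 h, as the mean of both genotypes, and 1 control library at 1 h stands high for Txnrd1 at 7.20.

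Of the 5 NADPH supply genes, Taldo1 fell in both genotypes. Taldo1, transaldolase of the pentose phosphate pathway, stood at 7.63, 7.65, 7.69 and 7.74 in Ado KO cells at 6 h, against 7.91, 7.98, 7.94 and 7.90 without TNF, and at 7.62, 7.79, 7.85 and 7.84 in control cells at 6 h, against 7.98, 8.06, 8.00 and 8.00. All TNF libraries were below all untreated ones. It fell by 0.26 ± 0.07 in Ado KO cells (SE, adjusted p = 0.0113) and by 0.23 ± 0.07 in control cells (adjusted p = 0.0135). With 1 Ado population alone the Ado KO difference did not pass, at -0.21 without Ado guide 1 and -0.31 without Ado guide 2 (adjusted p = 0.41 and 0.111). The control difference was -0.15 without control guide 1 (adjusted p = 0.333), and its call also ended without library 1-1 at 6 h or library 1-2 without TNF (adjusted p = 0.0804 and 0.0506). The rate-limiting enzyme G6pdx had a mean difference of -0.06 ± 0.07 (SE). Pgd, Tkt and Me1, further NADPH or pentose phosphate enzymes, had -0.10, -0.14 and -0.11 and did not pass.

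The responses of both genotypes at 6 h were compared directly. Of the called genes 6 were called in both genotypes, which is 6 of 7 in Ado KO and 6 of 10 in control cells. Over all genes 691 were called in both in the same direction, 80.8% of the calls in Ado KO and 28.9% of those in control cells. None of 36 passed limma's test of the difference between the responses, where 0.347% of all genes did, and 2 had an unadjusted p under 0.05 (6.73% of all genes). These were Osgin1, whose response was 1.32 ± 0.57 log2 units higher in Ado KO cells, and Prdx1, at -0.25 ± 0.12 (SE, adjusted p = 0.671 and 0.738). The genes called in 1 genotype only, Srxn1 in Ado KO and Osgin1, Prdx2, Prdx6 and Sod1 in control cells, were therefore not shown to respond differently. Markers of endothelial cells and pericytes also moved at 6 h. Their summed level over the 4 of 7 markers analysed was 3.46 to 5.88 CPM in Ado KO cells at 6 h, against 5.52 to 8.91 without TNF, and 1.25 to 4.27 CPM in control cells at 6 h, against 3.74 to 8.31. Among them Pdgfrb fell by 1.54 ± 0.35 in Ado KO cells and by 1.48 ± 0.35 in control cells, Eng fell by 1.78 ± 0.45 in control cells (SE), and the defining endothelial marker Pecam1 averaged -0.64 log2 CPM over all libraries. Their part in the results was not tested.

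At 1 h few genes had moved. TNF at 1 h called 0 of 36 genes in Ado KO cells, where 0.256% of all genes were called, and 4 had an unadjusted p under 0.05 in limma (7.26% of all genes). It called 1 of 36 in control cells, where 0.392% were called, and 10 had an unadjusted p under 0.05 (14.1% of all genes). As the mean of both genotypes 0 of 36 were called, where 0.625% were, and 8 had an unadjusted p under 0.05 in limma (10.9% of all genes). The 1 h and 6 h comparisons share their untreated libraries. The called gene was Osgin1, at -0.93, -0.30, 0.35 and 0.54 in control cells at 1 h, against 1.42, 1.31, 2.14 and 1.86 without TNF. These groups were apart by 1.77 ± 0.41 log2 units (SE, adjusted p = 0.0367). In Ado KO cells Osgin1 stood at 2.19, 1.42, 1.18 and 0.83 at 1 h, against 1.74, 0.92, 1.64 and 0.87, and the groups overlapped. The difference between the responses was 1.88 ± 0.57 (SE) and did not pass (adjusted p = 0.441), and 0 of 36 genes passed that test at 1 h, where 0% of all genes did and 5 of the 36 had an unadjusted p under 0.05 (9.83% of all genes). The control call of Osgin1 ended without control library 1-1 or 1-2 at 1 h and without each of the 4 untreated control libraries (adjusted p 0.0791 to 0.129), and with 1 CPM added before the log the difference was -1.09. Slc7a11 at 1 h stood at 2.19, 2.54, 2.26 and 2.58 in Ado KO cells and at 2.19, 2.02, 2.50 and 2.00 in control cells, between its untreated and 6 h means in both, and did not pass. Sqstm1 at 1 h averaged 8.44 ± 0.02 in Ado KO cells and 8.61 ± 0.18 in control cells (SD, n = 4 each), also between its untreated and 6 h means.

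The second question was whether the set differed between Ado KO and control cells. Without TNF 0 of 36 genes were called, where 0.249% of all genes were, and 4 had an unadjusted p under 0.05 in limma (8.79% of all genes). At 1 h 1 was called, where 1.06% were, and 8 had an unadjusted p under 0.05 in limma (15.8% of all genes). At 6 h 0 were called, where 1.02% were, and 8 had an unadjusted p under 0.05 (11.4% of all genes). Averaged over the 3 treatments, 3 of 36 were called, 2 as higher and 1 as lower, where 3.16% of all genes were, 1.79% as higher and 1.38% as lower, and 7.04% among genes with a mean of 5 or more. These comparisons share libraries and are not independent of each other. Each genotype is carried by 2 populations, and the fitted correlation within a population was 0.0485. The p-values for genotype therefore rest largely on the spread between libraries and measure that between populations poorly. Of the 3 fibroblast markers analysed of 7, Dcn was lower in Ado KO cells by 0.46 ± 0.13 (SE, adjusted p = 0.0465). The summed level of the 3 was 16.3 to 29.4 CPM in Ado KO and 17.3 to 25.6 in control cells without TNF, 17.5 to 19.9 and 19.5 to 23.5 CPM at 1 h in Ado KO and control cells, and 16.4 to 23.6 CPM in Ado KO and 14.5 to 28.2 in control cells at 6 h. Their part in the results was not tested.

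**Figure D4:**
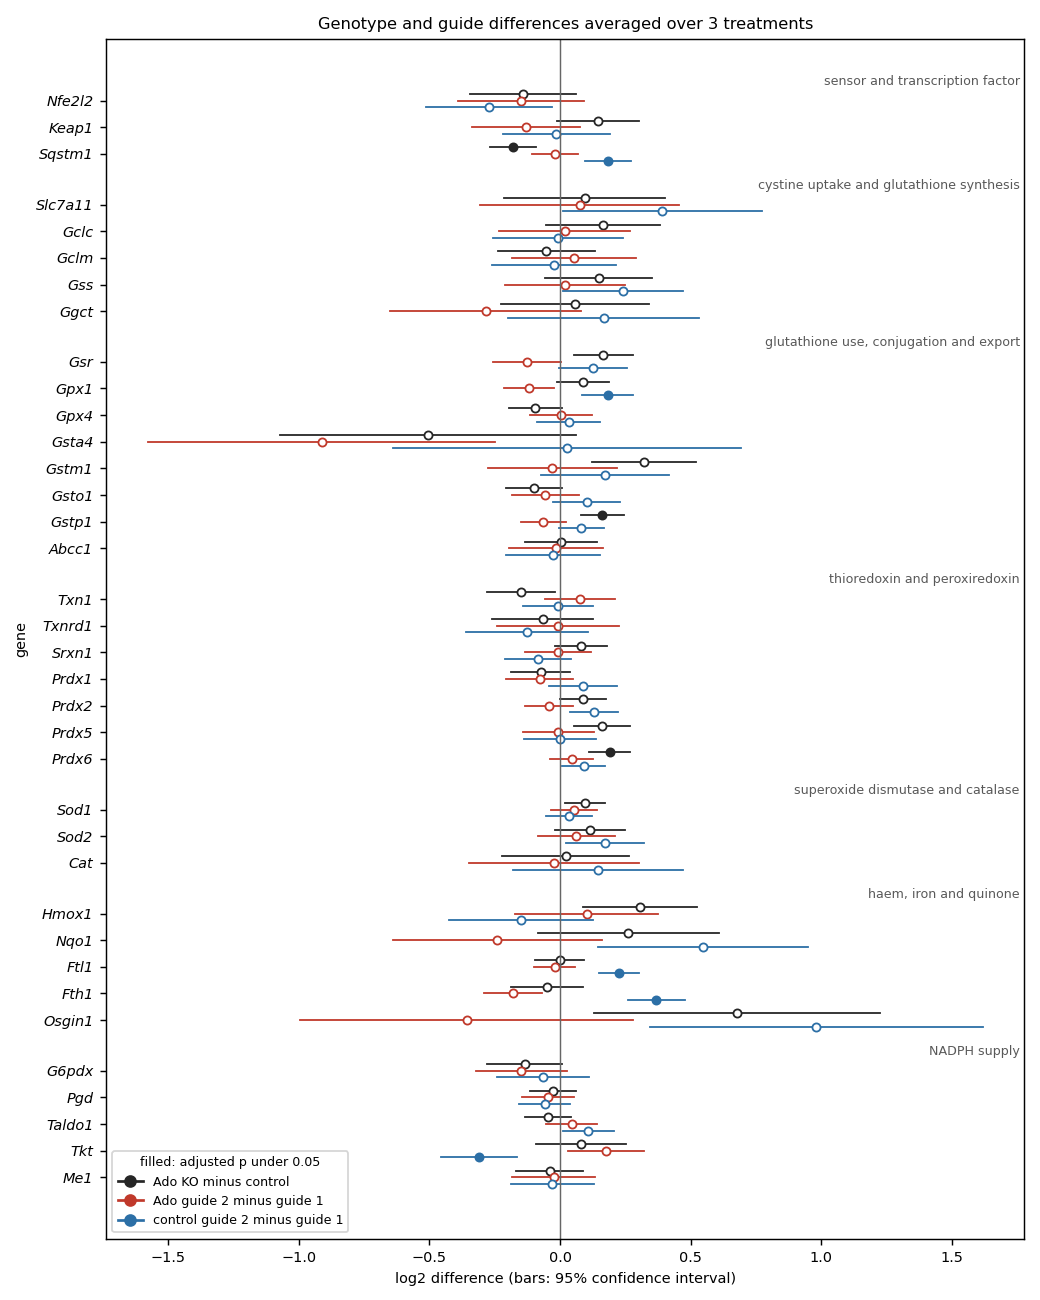
Log2 differences averaged over the 3 treatments for Ado KO minus control (black), Ado guide 2 minus guide 1 (red) and control guide 2 minus guide 1 (blue), with 95% confidence intervals and filled points for adjusted p under 0.05. Of the 36 genes Prdx6, Gstp1 and Sqstm1 are filled for genotype, 0 for the Ado guides, and Fth1, Ftl1, Gpx1, Sqstm1 and Tkt for the control guides.

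Prdx6, which reduces phospholipid hydroperoxides, was called higher in the Ado KO libraries. At 1 h it stood at 8.92, 8.90, 9.00 and 8.91 in Ado KO cells, against 8.59, 8.60, 8.73 and 8.80 in control cells. The groups did not overlap, and they differed by 0.25 ± 0.06 (SE, adjusted p = 0.0338). This call ended without any 1 of 5 libraries at 1 h (adjusted p 0.0678 to 0.138). These were 1-1, 1-2 and 2-1 of Ado KO and 1-1 and 1-2 of control cells. The call also ended without control guide 1, Ado guide 1 or Ado guide 2, and with a constant prior variance. Over all 38 alternatives its adjusted p reached 0.253. Without control guide 1 the difference was 0.17. Averaged over treatments Prdx6 was 8.89 in Ado KO cells and 8.70 in control cells, a difference of 0.19 ± 0.04 (SE, adjusted p = 0.00315). Its guide population means were 8.87 and 8.91 for Ado guides 1 and 2, and 8.66 and 8.75 for control guides 1 and 2. Gstp1, a pi-class glutathione transferase, averaged 8.80 in Ado KO cells and 8.64 in control cells, a difference of 0.16 ± 0.04 (SE, adjusted p = 0.0194). Gstp1 population means were 8.84 and 8.77 for the Ado guides and 8.60 and 8.68 for the control guides. In untreated cells Gstp1 ran from 8.77 to 8.83 in Ado KO and from 8.56 to 8.84 in control libraries, so its groups overlapped there. With 1 Ado population alone Gstp1 did not pass, at 0.13 without Ado guide 1 and 0.19 without Ado guide 2 (adjusted p = 0.29 and 0.0619), and Prdx6 did not pass without Ado guide 2, at 0.17 (adjusted p = 0.111).

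Sqstm1 was called lower in the Ado KO libraries, at a mean of 8.49 against 8.67 in control cells, a difference of -0.18 ± 0.04 (SE, adjusted p = 0.015). Its population means were 8.50 and 8.48 for the Ado guides and 8.58 and 8.76 for the control guides. The control populations differed from each other by as much as the genotypes did: the difference was -0.27 without control guide 1, and -0.09 without control guide 2 (adjusted p = 0.0864). The call also ended without Ado guide 1 or Ado guide 2 (adjusted p = 0.123 and 0.186), and with a constant prior variance (adjusted p = 0.057). With 2 populations per genotype, an exact two-sided permutation test over population means cannot give a p below 0.333, and 13 genes reached it with both Ado populations higher and 8 with both lower. Over all genes tested 22.4% had both Ado populations higher and 18.9% both lower. Slc7a11, the gene that rose most with TNF, did not differ detectably between genotypes, with a difference of 0.09 and an interval from -0.22 to 0.40. Hmox1, Gstm1 and Osgin1 had larger differences that did not pass, at 0.31 ± 0.11, 0.32 ± 0.10 and 0.68 ± 0.27 (SE, adjusted p = 0.117, 0.0656 and 0.185), and Gsta4 had one in the other direction, at -0.51 ± 0.28 (SE, adjusted p = 0.379). At 1 h Hmox1 stood at 3.64, 3.64, 3.68 and 3.52 in Ado KO cells, against 3.02, 2.84, 3.04 and 3.01 in control cells. With populations as fixed terms in limma, Hmox1 (0.64, adjusted p = 0.0241), Osgin1 (1.49, 0.0249) and Gstp1 (0.20, 0.0281) were called higher at 1 h. Txn1 was called lower there (-0.37, 0.00925). None of these was called at 1 h in the fit used above.

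The guides of 1 genotype were compared on their means. Ado guide 2 against Ado guide 1 called 0 of 36 genes, where 0.158% of all genes were called, and 4 had an unadjusted p under 0.05 in limma (8.79% of all genes). Control guide 2 against control guide 1 called 5 of 36, where 4.61% were called, 4 as higher (2.82% of all genes) and 1 as lower (1.79%). Among genes with a mean of 5 or more 8.76% were called. Of the markers of other cell types, Dcn was lower with control guide 2 by 0.59 ± 0.12 and Eng higher by 1.11 ± 0.30 (SE, adjusted p = 0.0029 and 0.0314), and their part in the results was not tested. Both ferritin genes were among the 5 called. Fth1 averaged 9.99 with control guide 2 and 9.62 with control guide 1, a difference of 0.37 ± 0.05 (SE, adjusted p = 0.000103), and Ftl1 averaged 10.43 with control guide 2 and 10.21 with control guide 1, a difference of 0.23 ± 0.04 (adjusted p = 0.000464). Sqstm1 and Gpx1 were higher by 0.18 ± 0.04 and 0.18 ± 0.05, and Tkt, transketolase, lower by 0.31 ± 0.07 (SE, adjusted p = 0.0124, 0.0243 and 0.00997). The ferritin difference between the control populations was close in size to the fall of Fth1 at 6 h, which was seen within both populations, at -0.38 for control guide 2 and -0.45 for control guide 1.

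A wider list of 137 genes of the same pathways was read in the same way, of which 120 were in the table and 107 tested. At 6 h 3 of 107 rose and 0 fell in Ado KO cells, which is 2.80% called against 6.44% of all genes. In control cells 4 rose and 10 fell, 13.1% against 18% of all genes, and as the mean of both 6 rose and 16 fell, 20.6% against 22.8%. All 3 rises in Ado KO cells were small MAF genes, whose proteins pair with NRF2. Maff rose by 1.25 ± 0.25 in Ado KO cells and by 1.37 ± 0.25 in control cells (SE, adjusted p = 0.000885 and 0.000184). Mafg and Mafk rose in Ado KO cells, by 0.28 ± 0.07 and 0.62 ± 0.19 (adjusted p = 0.0186 and 0.049). Atf4, a transcription factor of the amino acid response, rose in control cells by 0.19 ± 0.06 (adjusted p = 0.0185). As the mean of both genotypes Nfe2l1, a relative of NRF2, also rose by 0.24 ± 0.07, while the ubiquitin ligase genes Rbx1 and Btrc fell by 0.16 ± 0.05 and 0.36 ± 0.13 (SE).

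At 6 h in control cells 7.74% of all genes rose and 10.3% fell. Among genes with a mean of 5 or more the shares were 8.57% and 17.4%. In the glutathione list 5 of 28 genes fell in control cells at 6 h and 0 rose, among them the glutaredoxin gene Glrx3 (-0.32 ± 0.08), glyoxalase 1 (Glo1, -0.35 ± 0.10) and the transferase genes Gstz1 (-0.65 ± 0.21) and Gstt3 (-0.68 ± 0.22, SE). In the thioredoxin list 3 of 25 fell and 1 rose. The selenoprotein genes Selenom (-0.62 ± 0.11) and Selenon (-0.67 ± 0.16) and the reductase gene Txnrd3 (-0.60 ± 0.21) fell, and the selenoprotein gene Selenok rose by 0.31 ± 0.11 (adjusted p = 0.0496). In the haem, iron and detoxification list 2 of 22 fell, the haem oxygenase gene Hmox2 (-0.43 ± 0.10) and the prostaglandin reductase gene Ptgr1 (-0.56 ± 0.18). The transferrin receptor gene Tfrc, which brings iron into cells, rose by 0.41 ± 0.14 in control cells (SE, adjusted p = 0.0443). In the NADPH list 0 of 15 passed in either genotype. As the mean of both 3 fell, Pgls (-0.20 ± 0.06), Shmt2 (-0.20 ± 0.07) and Nadk (-0.15 ± 0.06). In that comparison 13.5% of all genes fell, and 22.5% of those with a mean of 5 or more. Further falls as the mean of both were Txnip (-0.33 ± 0.10), an inhibitor of thioredoxin, Glrx5 (-0.17 ± 0.05), and the biliverdin reductase genes Blvra (-0.22 ± 0.08) and Blvrb (-0.22 ± 0.07).

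Between Ado KO and control cells averaged over treatments, 5 of the 107 were higher and 3 lower, 7.48% called against 3.16% of all genes and 7.04% of those with a mean of 5 or more. The lower ones were Aldh1l2, a mitochondrial folate enzyme that yields NADPH (-0.81 ± 0.13, SE, adjusted p = 0.000184), Idh1, the cytosolic isocitrate dehydrogenase that yields NADPH (-0.36 ± 0.10, adjusted p = 0.0409) and the thioredoxin-like gene Txndc17 (-0.27 ± 0.08, adjusted p = 0.0399). The higher ones were the NAD kinase gene Nadk (0.27 ± 0.05, adjusted p = 0.00209), Mthfd2, Slc3a2, Atf4 and Gstp2. Slc3a2, the partner chain of SLC7A11 in the cystine transporter, was higher by 0.22 ± 0.06 (SE, adjusted p = 0.0336). The control populations differed from each other in Slc3a2 by slightly more than the genotypes did. Fits with 1 population left out are not given here for genes of this wider list. Gstp2 is nearly identical to Gstp1, so its tags and those of Gstp1 could have been split between them. At 1 h Aldh1l2, Idh1 and Txndc17 were lower in Ado KO cells, by 0.87 ± 0.20, 0.70 ± 0.16 and 0.49 ± 0.12 (SE), and at 6 h Aldh1l2 was lower by 0.92 ± 0.20.

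Over all these comparisons between treatments and genotypes, 17 of the 36 genes were called at least once and 19 were not, where 27.5% of all genes and 40.3% of those with a mean of 5 or more were called at least once. The 19 were Nfe2l2, Hmox1, Nqo1, Gclc, Gclm, Gss, Gsr, Txnrd1, Gsta4, Gsto1, Prdx1, Prdx5, Sod2, Cat, G6pdx, Pgd, Tkt, Me1 and Ggct. Their mean differences at 6 h lay between -0.53 for Gsta4 and 0.22 for Ggct. Together the 36 genes made up 0.775 to 0.805% of the signal in Ado KO cells at 6 h, against 0.83 to 0.86% without TNF, and 0.739 to 0.817% in control cells at 6 h, against 0.813 to 0.880%.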

How the data were processed

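RNA was measured with a QuantSeq 3' mRNA kit, which counts tags near transcript ends, per the labels' protocols. The tools limma, Subread with featureCounts, HISAT2, cutadapt 1.7 and FastQC and the builds GRCm38 and mm10 are named per the submitters' processing notes; other versions and the order of steps are not given in the sources used here. The deposited table holds log2 CPM per gene, normalised by the authors. Unit and quantile normalisation were inferred from the values: unlogged values summed to 998900 to 999014 in each library, and all libraries shared the lowest value of -3.35, at which 617 to 1013 genes stood. The depth is unknown.

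Values were used as deposited. Limma 3.58.1 (R 4.3.3, statmod 1.5.0) fitted 6 group means over 24 libraries with a trended prior variance and the guide population as a random block (estimated correlation 0.0485). Genes with 0 or more in at least 4 libraries were kept, and two-sided p-values were Benjamini-Hochberg adjusted over 13272 genes, with calls at adjusted p under 0.05. Guides were compared on 12 means of population and treatment. Replicates within a group correlated across genes at 0.959 to 0.976, and 0 pairs were identical. Deviations of same-numbered replicates correlated at -0.158 to 0.054, so replicate numbers were not used as pairs. In 1 group, control guide 2 with TNF for 1 h, titles and column names gave opposite replicate numbers; columns were joined by the sample descriptions and numbers follow the titles.

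The 36 genes, the further lists and the tests were chosen with earlier results of these data known. Genes were given by library where called between treatments or genotypes, limited to the 14 with the largest differences, plus Nfe2l2, Keap1, Nqo1 and Hmox1; from each further list up to 4 genes with the smallest adjusted p per comparison were named, and any that moved against most of the list. Sod2 and the 1 h values of Slc7a11 were added after their values were seen. The fit was tested on simulated data. Similar 3' ends were searched with blastn 2.17.0 in GENCODE M21, and figures drawn with matplotlib 3.10.9 in Python 3.11.15. In all, 38 alternatives were tried: filters, 1 CPM added before the log, other blocks and variance priors, other normalisations, and leaving out each library or population.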

Additional observations from a re-analysis of the deposited data

Results flagged for a closer look

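In 9 of 216 groups of 4 libraries (36 genes in 6 groups), 1 library stood apart from the other three by Dixon's criterion; chance alone gives about 1 in 20. Nfe2l2 was 4.22 log2 CPM in control untreated library 1-1, against 3.73 to 3.77 in the others of its group, and 3.42 in Ado KO library 2-1 at 6 h, against 3.93 to 3.98. Keap1 was 5.12 in Ado KO library 1-1 at 6 h, against 4.71 to 4.74. In control library 1-2 at 1 h, Hmox1 was 2.84, against 3.01 to 3.04, and Gpx4 was 7.27, against 7.61 to 7.67. Gstp1 was 8.65 in control library 1-2 at 6 h, against 8.53 to 8.54. Sod2 was 5.52 in Ado KO untreated library 1-1, against 5.65 to 5.67. Abcc1 was 5.76 in Ado KO library 1-2 at 6 h, against 5.69 to 5.70. Ggct was 2.84 in Ado KO library 1-2 at 1 h, against 2.45 to 2.51.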

How the results depend on the processing

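Of 38 alternatives none reversed a gene that was called with all libraries and the settings given above. Slc7a11 and Sqstm1 kept their 6 h calls in both genotypes in all of them, as did Abcc1, Ftl1, Fth1 and Osgin1 in control cells in every alternative that tested them. Leaving out each library in turn gave 6 to 7 called genes for TNF 6 h in Ado KO cells (7 with all libraries), 8 to 12 in control cells (10) and 13 to 17 as the mean (16). For genotype it gave 0 without TNF (0), 0 to 4 at 1 h (1), 0 to 1 at 6 h (0) and 3 to 4 averaged (3). For TNF 1 h it gave 0 in Ado KO cells, 0 to 1 in control cells (1) and 0 to 1 as the mean (0). It gave 0 to 1 between Ado guides (0), 2 to 8 between control guides (5) and 0 for both interactions.

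At 6 h the count was 3 without Ado guide 1 and 2 without Ado guide 2 in Ado KO cells, 6 without control guide 1 in control cells, and 10 without Ado guide 1 as the mean. At 1 h in control cells it was 0 under the stricter filter, without the population block, with the replicate block, with a constant prior variance and without any 1 population. For genotype without TNF it was 1 without control guide 1. For genotype at 1 h it was 2 under the stricter filter and without the block, 5 with populations as fixed terms, 0 with a constant prior, 6 without control guide 2 and 0 without Ado guide 1. For genotype at 6 h it was 1 with fixed terms and without control guide 2. For genotype averaged it was 7 without the block, 9 with fixed terms, 1 with a constant prior, 7 without control guide 1, 12 without control guide 2, 1 without Ado guide 1 and 0 without Ado guide 2. Between control guides it was 2 with a constant prior. Shares of all genes under these settings are not given here. Ftl1, not called for genotype averaged with all libraries, changed sign with the control population used. It was called lower in Ado KO cells without control guide 1 (-0.11, adjusted p = 0.0261) and higher without control guide 2 (0.11, adjusted p = 0.0311). The cause was not tested. With the replicate block the counts were 7 in Ado KO and 10 in control cells at 6 h, 15 as the mean and 4 for genotype averaged, but the numbers do not pair the libraries. Depth is unknown. Osgin1 and Gsta4 had the lowest means of the set and reached 0 log2 CPM in 19 libraries each.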

Other observations

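The control guide populations also differed in the wider pathway list, where 12 of 107 genes were higher and 2 lower with control guide 2 than with control guide 1. This was 13.1% called, against 4.61% of all genes and 8.76% of those with a mean of 5 or more. Of all genes 2.82% were higher and 1.79% lower. In the glutathione list the drug exporter gene Abcg2 was higher by 1.54 ± 0.30, Esd by 0.20 ± 0.04 and Slc3a2 by 0.25 ± 0.06, while Glrx was lower by 0.53 ± 0.12 (SE). In the thioredoxin list Txnip was higher by 0.43 ± 0.08 and the methionine sulfoxide reductase genes Msrb3 and Msrb1 by 0.52 ± 0.12 and 0.39 ± 0.12. In the haem and detoxification list the haem transporter gene Slc48a1 was higher by 0.38 ± 0.05 (adjusted p = 5.14e-05), Cbr3 by 0.48 ± 0.11 and Akr1b3 by 0.22 ± 0.06, while Aco1 was lower by 0.35 ± 0.09. In the NADPH list Idh2 was higher by 0.21 ± 0.06. Ado guide 2 against Ado guide 1 called 0 of these 107 in limma, and 10 had an unadjusted p under 0.05 (8.79% of all genes). Txnrd1 stood at 7.20 log2 CPM in control library 1-2 at 1 h, against 6.03 to 6.30 in the other control libraries at 1 h. In the same library Nfe2l2 was 4.74 (others 4.02 to 4.19), Me1 6.40 (5.89 to 6.06) and Sod1 9.56 (9.34 to 9.38). Fth1 was 9.41 there (others 9.86 to 10.13) and Gpx1 8.17 (8.39 to 8.50). These genes were picked after their values were seen. The library is part of the control group in all comparisons that use 1 h.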
